A study of Homo sapiens with 4 samples.

Results

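The mRNA level and the m6A peaks of 10 genes of the epithelial-mesenchymal transition (EMT) were examined in A549 cells, a human lung adenocarcinoma line. The genes were SNAI1, SNAI2, ZEB1, ZEB2, TWIST1, CDH1, CDH2, VIM, EPCAM and CTNND1, taken by symbol from the 28283 genes of the expression table and from the peak lists. The cells carried either a control vector (shNC, labelled PLKO_1 at its source) or a lentiviral shRNA against YTHDF2, a cytoplasmic reader of N6-methyladenosine that is known to promote decay of methylated mRNA (shY2-2). Both were stable cultures of the same line, and libraries came from 1 of the shRNAs of the study. Poly(A) RNA of each culture was fragmented and gave 1 input library and 1 library of the pieces bound by an m6A antibody (IP), so 4 libraries were available in all. As each condition was sequenced once for each kind of library, the differences given below could not be checked against replicates, and no gene was tested.

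In EMT, epithelial cells lose their junctions and gain the shape and motility of mesenchymal cells. SNAI1, SNAI2, ZEB1, ZEB2 and TWIST1 encode transcription factors that drive this change, in large part by repressing CDH1 through E-box elements in its promoter. CDH1 encodes E-cadherin of the adherens junction, CTNND1 encodes p120-catenin, which binds the cadherin tail and keeps E-cadherin at the cell surface, and EPCAM encodes an epithelial adhesion molecule, whereas CDH2 (N-cadherin) and VIM (vimentin, an intermediate filament protein) mark mesenchymal cells. A549 cells are known to hold epithelial and vimentin-rich features side by side.

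The antibody pulls down fragments that carry m6A, which is placed mostly on the adenosine of the letters GGAC and related ones. The sites below lie inside the peaks described later and are shown because they are the GGAC occurrences nearest to the results: capitals mark GGAC, or GGACT where a T follows, the A of which is the central base of each window. Each sequence is written 5′ to 3′ on the strand of the gene, from the GRCh38 reference genome. The letters are a match within a peak and not a mapped methylation site.
CDH1, coding exon 16, chr16:68833411-68833435, + strand: acaaagaccaGGACTatgactactt
CDH1, start of the 3′ UTR, chr16:68833491-68833515, + strand: gacgactaggGGACTcgagagaggc
CTNND1, 3′ UTR, chr11:57817298-57817322, + strand: gcaaactaaaGGACTtgatgtacat
CTNND1, intron of the reference transcript, chr11:57803805-57803829, + strand: gtaacagtagGGACTttgagaatat
EPCAM, 3′ UTR, chr2:47386839-47386863, + strand: tccagaacttGGACTccatcgttaa
ZEB1, coding exon 9, chr10:31526945-31526969, + strand: agggcgactcGGACgagagagagag
TWIST1, 3′ UTR, chr7:19115757-19115781, - strand: gcatcactatGGACTttctctattt
CDH2, 3′ UTR, chr18:27952115-27952139, - strand: cttggtttttGGACaagtacaaaca
VIM, coding exon 2, chr10:17229853-17229877, + strand: cgcgcctgggGGACctctacgagga
VIM, coding exon 9, chr10:17236329-17236353, + strand: cactcaaaaaGGACacttctgatta

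Expression was read from the input libraries as FPKM, fragments scaled by exon length and by the mapped fragments of the library, a scale on which levels can be compared between genes. In the shNC library VIM stood at 144 FPKM, above 99.3% of the genes of the table, followed by CTNND1 at 28.5, CDH1 at 9.99 and SNAI1 at 4.27. CDH2 (2.23), EPCAM (2.02) and ZEB1 (1.83) lay close together, TWIST1 was at 0.716, and SNAI2 (0.241) and ZEB2 (0.162) were the lowest of the members. SNAI1 thus carried most of the summed FPKM of the 5 transcription factors, which was 7.22 in that library. Order was kept in the shY2-2 library for VIM and CTNND1 at the top, whereas SNAI1 passed CDH1 and TWIST1 passed EPCAM and ZEB1.

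**Figure D1:**
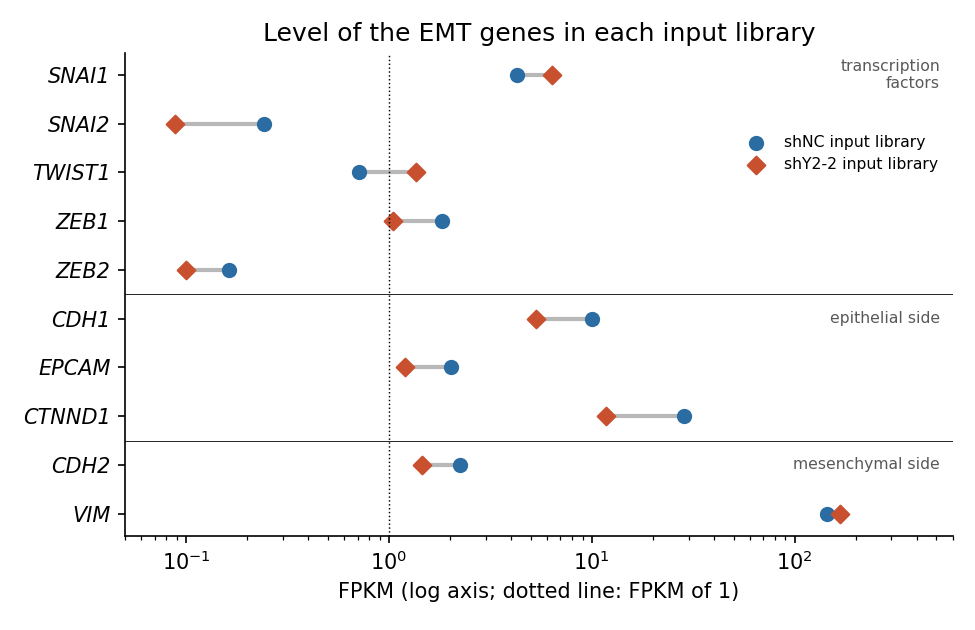
Levels of the 10 EMT genes in the 2 input libraries, as FPKM on a log axis, with 1 point per library (circles shNC, diamonds shY2-2) and genes grouped by role. CDH1, EPCAM and CTNND1 lie lower in shY2-2, SNAI1, TWIST1 and VIM lie higher, and SNAI2 and ZEB2 stay below the dotted line at an FPKM of 1 in both libraries.

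The comparison between the libraries asked how far the EMT genes moved when YTHDF2 was lowered. The targeted gene itself, YTHDF2, had an FPKM of 3.56 in shNC and 1.02 in shY2-2. A pseudocount of 1 was added to each FPKM before the log2 ratio of shY2-2 to shNC was taken, so changes are understated for weakly expressed genes, and a gene was called past a log2 ratio of 1 in size. Of the 10 members, 8 reached an FPKM of 1 in either input library and were kept, with 12268 genes kept in all. Of these 8, 5 had a lower and 3 a higher value in shY2-2. CTNND1 was the 1 member below a log2 ratio of -1, where 2.14% of all genes kept lay, and 0 members were above 1, where 0.986% lay. At more than 1.5-fold on the same scale, 2 members were lower, CTNND1 and CDH1 (8.92% of all genes kept), and 0 were higher (5.38%). The median log2 ratio of the 8 members was -0.43, beside 0.00 over all genes kept, of which about as many were thus lower as higher. TWIST1 was kept only through the shY2-2 library, in which it was the higher.

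With the pseudocount, the junction genes CTNND1 and CDH1 showed the widest differences of the 8 members kept. Without it, TWIST1 differed about as much as CDH1, with log2 ratios of 0.93 and -0.92. CTNND1 (ENSG00000198561, chr11:57753243-57819546, + strand) had an FPKM of 28.5 in shNC and 11.7 in shY2-2. It fell by 1.22 on the log2 scale with the pseudocount, the plain FPKM ratio was 0.410, and 0.913% of the genes kept had a lower log2 ratio. The same-strand genes that overlap it, whose reads cannot always be told apart from those of CTNND1, were much lower in level: AP001931.1 had 0.564 FPKM in shNC and 0.133 in shY2-2, and the readthrough gene TMX2-CTNND1 had 0.0816 and 0.00117.

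CDH1 (ENSG00000039068, chr16:68737225-68835548, + strand) had 9.99 FPKM in shNC and 5.28 in shY2-2. The shY2-2 value was 47.1% lower, a log2 ratio of -0.81, and 4.16% of the genes kept had a lower one. EPCAM (ENSG00000119888, chr2:47345158-47387601, + strand) had 2.02 and 1.20 FPKM, a log2 ratio of -0.46, with 13.3% of the genes kept below it. The epithelial members CDH1 and EPCAM and the junction catenin CTNND1 were therefore all lower in shY2-2. CTNND1 was more so than its partner CDH1: the ratio of CTNND1 to CDH1 was 2.85 in shNC and 2.22 in shY2-2.

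The mesenchymal members went in opposite directions. CDH2 (ENSG00000170558, chr18:27950966-28177446, - strand), the cadherin that replaces E-cadherin in the textbook cadherin switch, had 2.23 FPKM in shNC and 1.46 in shY2-2, a log2 ratio of -0.39. Both cadherins were thus lower in the shY2-2 library, and the ratio of CDH1 to CDH2 was 4.48 in shNC and 3.62 in shY2-2, so CDH1 remained the higher of the pair. VIM (ENSG00000026025, chr10:17228259-17237593, + strand) had 144 and 167 FPKM, a log2 ratio of 0.21, and 72.7% of the genes kept had a lower ratio. Set against the epithelial genes, VIM stood at 14.4 times CDH1 in shNC and 31.6 times in shY2-2, and most of that difference lay in CDH1.

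The transcription factors differed in direction. SNAI1 (ENSG00000124216, chr20:49982999-49988886, + strand), which encodes the zinc-finger repressor Snail, had 4.27 FPKM in shNC and 6.40 in shY2-2. Its log2 ratio was 0.49, and 91.4% of the genes kept had a lower one. TWIST1 (ENSG00000122691, chr7:19020991-19117672, - strand), a basic helix-loop-helix factor, had 0.716 and 1.36 FPKM, a log2 ratio of 0.46. The order of the pair rests on the pseudocount: at 0.5 the log2 ratio was 0.61 for TWIST1 and 0.53 for SNAI1, and the plain FPKM was 90.2% and 49.9% higher in shY2-2. ZEB1 (ENSG00000148516, chr10:31318495-31529814, + strand), a zinc-finger homeobox repressor, had 1.83 and 1.05 FPKM, a log2 ratio of -0.46. The ratio of SNAI1 to ZEB1 was 2.33 in shNC and 6.08 in shY2-2, and that of SNAI1 to CDH1 was 0.427 and 1.21. None of these factors passed a log2 ratio of 1 in size.

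SNAI2 (ENSG00000019549, chr8:48917768-48921740, - strand), which encodes Slug, had 0.241 FPKM in shNC and 0.0882 in shY2-2, and ZEB2 (ENSG00000169554, chr2:144364364-144524583, - strand) had 0.162 and 0.1001. The commonest non-zero value in the table was 0.171 FPKM in shNC, shared by 39 genes, and 0.137 in shY2-2, shared by 38 genes. If that value stands for an average coverage of 1 fragment, SNAI2 had a coverage of 1.41 in shNC and 0.643 in shY2-2, and ZEB2 had 0.947 and 0.730. Such a coverage is a depth per base, and the number of fragments behind it also grows with transcript length, 2180 nt for SNAI2 and 9265 nt for ZEB2. Both genes lay below the FPKM filter, so no difference was read in them. On the same assumption the coverage of CTNND1 was 167 and 85.4, and that of CDH1 was 58.4 and 38.5.

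**Figure D2:**
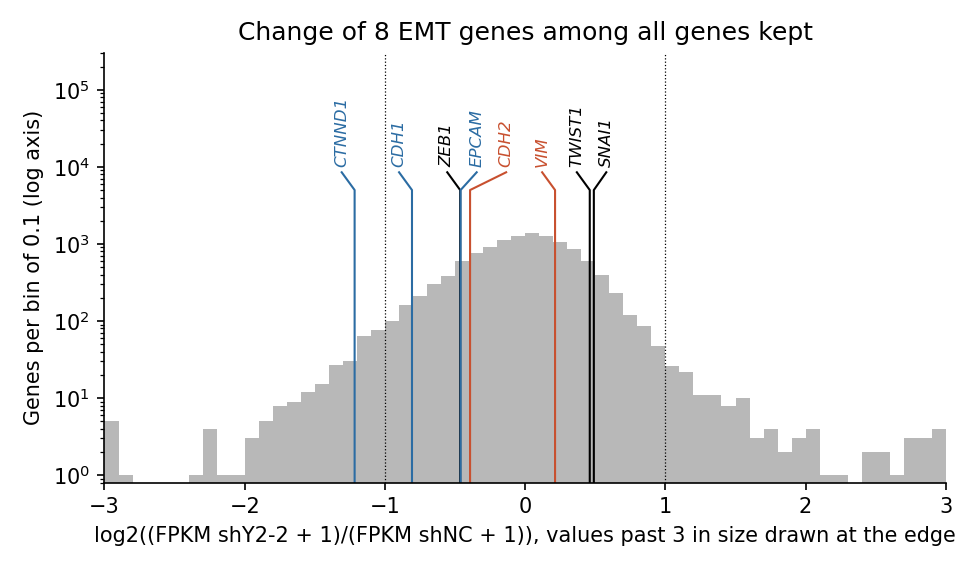
Histogram of the log2 ratio of shY2-2 to shNC over the 12268 genes kept, with genes per bin of 0.1 on a log axis and a line for each of the 8 EMT genes kept (blue CDH1, EPCAM and CTNND1, red mesenchymal side, black transcription factors). CTNND1 at -1.22 is the member past the dotted lines at -1 and 1, and TWIST1 at 0.46 and SNAI1 at 0.49 lie side by side on the right, in an order that turns with a smaller pseudocount.

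The log2 ratio moved with the base composition of transcripts. Over reference transcripts with under 40% GC, the median of 1935 genes kept was -0.21, and it was 0.11 over the 1860 genes between 55 and 60% GC. The members' reference transcripts held 38.9% GC in ZEB1, 43.1% in CDH2, 44.3% in EPCAM, 46.1% in CTNND1, 48.2% in CDH1, 54.3% in VIM, 57.2% in TWIST1 and 58.4% in SNAI1. The 5 members with a lower value in shY2-2 thus had less GC than the 3 with a higher value. Genes between 45 and 50% GC, the bin of CTNND1 and CDH1, had a median of 0.03. The part of base composition in the members' ratios was not tested.

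Markers of a lung epithelial line and of other cell types were read beside these values. The keratins KRT7, KRT8, KRT18 and KRT19, markers of the line, summed to 1585 FPKM in shNC and 1014 in shY2-2. All 4 were lower in shY2-2, and they are also part of the epithelial list below. Of the alveolar type 2 markers, 2 of 5 were measured, the surfactant gene SFTPC at 0.0303 and 0.0670 FPKM and ABCA3 at 4.81 and 3.62. The 5 fibroblast markers summed to 2.25 and 1.78 FPKM, with collagen gene COL1A1 at 0.834 and 1.64 and the other 4 each lower in shY2-2. The 4 endothelial markers summed to 0.138 and 0.0533, with KDR listed at 0 in shY2-2. The 4 leukocyte markers summed to 15.9 and 13.2. Of these, PTPRC (0.0999 and 0.0394) and CD3E (0.0171 and listed at 0) were low, whereas CD68 (12.2 and 10.2) and CD14 (3.56 and 2.97) were above an FPKM of 1 in both libraries. In bulk RNA, fewer cells with an epithelial profile and less RNA per cell cannot be told apart.

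In the m6A data, 17 of the 31057 distinct peaks of the shNC list and 14 of the 27344 of the shY2-2 list belonged to EMT genes. Peaks were called in 6 members in shNC (ZEB1, TWIST1, CDH1, VIM, EPCAM and CTNND1) and in 5 in shY2-2 (ZEB1, CDH1, CDH2, VIM and CTNND1). All the members with a peak were among the 8 kept, and of all genes kept 81.2% had a peak in shNC and 78.4% in shY2-2. ZEB1, CDH1, VIM and CTNND1, 4 members, had peaks in both lists, as did 72.7% of all genes kept. CTNND1 had 6 peaks in shNC and 3 in shY2-2, CDH1 had 4 and 2, VIM had 3 and 6, and ZEB1 had 2 in each. The VIM counts, and so the totals, include in each list a near copy of a peak in exon 2. A count of 6 or more peaks was reached by 6.24% of the genes kept in shNC and 3.78% in shY2-2.

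SNAI1, SNAI2 and ZEB2 had no peak in either list. SNAI2 and ZEB2 lay below an FPKM of 1 in both libraries, whereas SNAI1 was expressed at a level at which peaks were common. Of the 3143 genes within 1.5-fold of its shNC FPKM, 90% had a peak in at least 1 list. These genes were matched on FPKM and not on transcript length. The reference transcript of SNAI1, of 1705 nt, held 10 GGAC. No call in SNAI1 says only that the IP over input ratio did not pass in either pair of libraries.

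The place of the members' peaks in the transcript was read next. By the deposited annotation 12 of 17 member peaks in shNC and 9 of 14 in shY2-2 were in a 3′ UTR, beside 59.1% and 59.5% of all peaks of these lists. With at least 1 base in the 3′ UTR of the GENCODE reference transcript there were 11 and 5, and with at least 1 base in its coding sequence 7 and 8. The 4 shY2-2 peaks that differed were 2 in coding sequence, 1 each of ZEB1 and CDH1, and 2 of VIM outside that transcript. GGAC occurred in 11 of 17 and in 8 of 14 (60.9% and 60.6% of all peaks), on the transcribed strand of the spliced peak. By exonic overlap of at least 1 bp, 7 shNC peaks met a shY2-2 peak and 7 the other way round, beside 55.9% and 65.4% of all peaks.

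**Figure D3:**
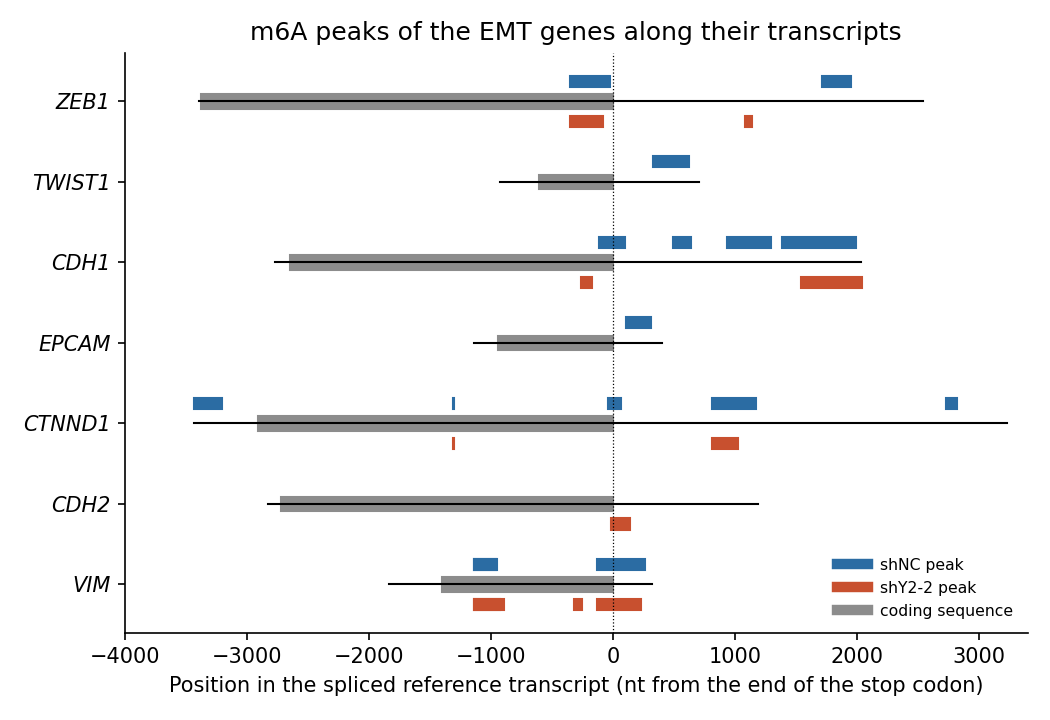
Peaks of the 7 EMT genes with a peak, drawn on each spliced reference transcript (grey coding sequence, line UTRs) as nt from the end of the stop codon, with shNC peaks above and shY2-2 peaks below the line. CTNND1 has its stop codon and distal 3′ UTR covered in shNC and not in shY2-2, by shNC peaks with an FDR of 0.113 and 0.288. The VIM peak at the stop codon is in both lists, and parts of peaks outside the reference transcript are not drawn.

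CTNND1, the 1 member past a log2 ratio of 1 in size, had the most member peaks in shNC. The 3′ UTR peak at chr11:57817122-57817481, which holds the GGACT shown above 1002 nt past the stop codon, had a fold enrichment of IP over input of 1.53 and a deposited false discovery rate (FDR) of 3.98e-08. Its partner in shY2-2, chr11:57817122-57817332, had a fold of 1.25 and an FDR of 0.0195. The second shared peak, at chr11:57803794-57803973 in shNC, had a fold of 2.09 beside 1.63 in shY2-2 and holds the other CTNND1 site shown. Only 11 nt of it lie in exon 8 of the reference transcript and the rest is in the intron, where 1 of the 52 annotated transcripts has an exon.

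The other 4 shNC peaks of CTNND1 had no partner. They lay in the 5′ UTR (chr11:57753542-57762036, fold 1.47, FDR 0.000871) and outside the reference transcript (chr11:57806604-57806664, fold 3.24, FDR 0.0331). The others lay across the stop codon (chr11:57815970-57816374, fold 1.37, FDR 0.113) and in the distal 3′ UTR (chr11:57819037-57819127, fold 1.78, FDR 0.288), both at an FDR above 0.05. The shY2-2 list held 1 CTNND1 peak without a partner, chr11:57753243-57753512 at the start of the gene, with a fold of 4.63 and an FDR of 0.834. Both shared CTNND1 peaks thus had lower folds in shY2-2, where the coverage of the gene was also lower, and the part of read depth in the folds and calls was not tested.

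In shNC the 4 peaks of CDH1 lay at the stop codon and in stretches of the 3′ UTR, with gaps between them. The peak across the stop codon, chr16:68833389-68833599, which holds both CDH1 sites shown above, had a fold of 1.40 and an FDR of 0.181. Next to it came chr16:68833989-68834139 (fold 1.46) and chr16:68834439-68834798 (fold 2.15, FDR 0.00355), and none of these had a partner in shY2-2. The last peak did: chr16:68834888-68835488 had a fold of 2.58 in shNC, and chr16:68835038-68835548 had 3.47 in shY2-2, with FDR of 0.000263 and 0.0224. This shared stretch held no GGAC in the reference sequence. The shY2-2 list added a coding peak in exons 15 and 16, chr16:68829747-68833329, with a fold of 1.41 and an FDR of 0.330.

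EPCAM had 1 peak, in shNC, in the 3′ UTR of exon 9 (chr2:47386718-47386928, fold 2.40, FDR 0.169). The GGACT shown above lies 238 nt past its stop codon. CDH2 had 1 peak, in shY2-2, across the stop codon in exon 16 (chr18:27952016-27952166, fold 3.24, FDR 0.167), and the GGAC shown is 26 nt past the stop codon. Each of these was found in a single list at an FDR above 0.05, at input levels near 2 FPKM or below.

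VIM, the member with the highest level, had the peak with the lowest FDR of the set and also its lowest folds. The peak over the end of the coding sequence and the 3′ UTR was nearly the same in both lists: chr10:17236263-17237533 with a fold of 1.88 and an FDR of 1.26e-84 in shNC, and chr10:17236263-17237503 with 1.84 and 2.00e-98 in shY2-2. It spans the stop codon in exons 9 and 10 and holds the second VIM site shown, at position -80 on the same count from the last base of the stop codon. The peaks in exon 2 started at the same base in both lists, with folds of 1.10 in shNC (chr10:17229688-17229868) and 1.15 in shY2-2 (chr10:17229688-17229898). A near copy of each stood beside it, 179 nt long beside 181 in shNC and 239 beside 211 in shY2-2. VIM-AS1, on the opposite strand at 1.13 and 1.11 FPKM, overlaps exon 2, and the lists carry the strand of the annotated gene.

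The 3 further VIM peaks of shY2-2 had no partner. They were chr10:17235244-17235304 in exon 7 (fold 1.06, FDR 0.0513), chr10:17235634-17235754 (fold 1.95, FDR 0.229) and chr10:17235963-17236053 (fold 1.21, FDR 0.00851). The last pair lay in introns of the reference transcript, where 1 and 2 of the 10 annotated VIM transcripts have an exon at the middle of the peak. VIM thus had more peaks called in shY2-2, some of them at an FDR above 0.05, without a higher fold at the peak over its stop codon.

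ZEB1 had a shared peak that ended in its last coding exon. It spanned chr10:31526911-31527240 in shNC, with a fold of 2.14 and an FDR of 1.12e-08, and chr10:31526911-31527180 in shY2-2, with 2.41 and 3.16e-06. The deposited annotation places it in a 3′ UTR, but in the reference transcript it is coding sequence of exon 9 and ends at positions -24 (shNC) and -84 (shY2-2) in nt from the last base of the stop codon. The GGAC shown lies in it in both lists. Farther into the 3′ UTR the lists differed, with chr10:31528976-31529215 in shNC (fold 2.03) and chr10:31528348-31528407 in shY2-2 (fold 2.31, FDR 0.423). TWIST1 had 1 peak, in shNC, over 326 to 625 nt past the stop codon in exon 2 (chr7:19115549-19115848, fold 2.90, FDR 0.0457), and none in shY2-2 although its FPKM was the higher there.

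**Figure D4:**
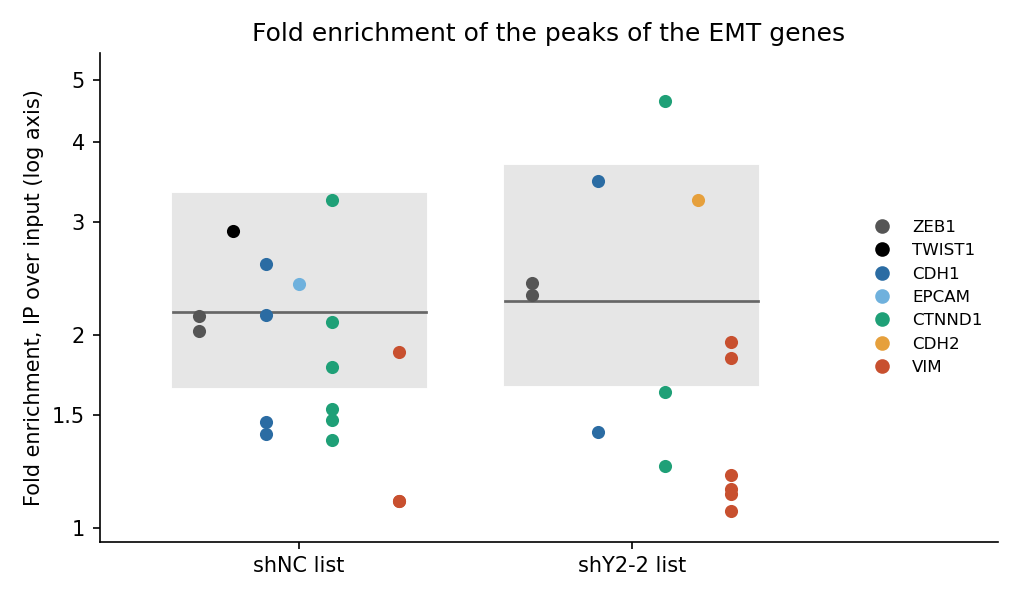
Fold enrichment of IP over input of each EMT gene peak in the shNC and shY2-2 lists, on a log axis, 1 point per peak, coloured by gene. Grey boxes run between the quartiles of all peaks of a list (1.66 and 3.31 in shNC, 1.67 and 3.66 in shY2-2) with a line at the median; VIM points lie at or below 1.95, and the 2 shNC points of VIM at 1.10 overlie each other.

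The median fold of the members' peaks was below that of each list. It was 1.88 in shNC, beside 2.17 over all shNC peaks, and 1.74 in shY2-2, beside 2.26. Ranges were 1.10 to 3.24 and 1.06 to 4.63. VIM gave 3 of the 17 shNC and 6 of the 14 shY2-2 member peaks, all with folds at or below 1.95. The 4 shNC and 5 shY2-2 member peaks above the median of their list were thus all of genes other than VIM. An FDR of at most 0.05 was given to 11 of 17 in shNC and 8 of 14 in shY2-2, beside 17510 of 31057 and 14247 of 27344 over all peaks. Among the shared peaks the shY2-2 fold was lower for CTNND1, at both places, and higher for ZEB1 and for the end of CDH1. For VIM it was between 0.979 and 1.05 times the shNC fold.

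Further genes of the transition were taken from lists by role. Beside the counts of each list, 2.14% of all genes kept lay below a log2 ratio of -1 and 0.986% above 1. At more than 1.5-fold, 8.92% of all genes kept were lower and 5.38% higher. Of 11 other EMT transcription factors 5 were kept, 4 higher and 1 lower, with a median log2 ratio of 0.42 and none past 1 in size. ZNF281 had 19.5 FPKM in shNC and 16.4 in shY2-2, TWIST2, a relative of TWIST1, had 6.37 and 9.47, and FOXC1, a forkhead factor and the 1 past 1.5-fold, had 4.26 and 7.11. Of 22 epithelial genes 11 were kept, 9 of them lower and 2 higher, with a median of -0.46. PKP2, among those lower, was kept through shNC alone. OCLN, which encodes occludin of the tight junction, was the 1 past a log2 ratio of 1 in size: it had 2.55 FPKM in shNC and 0.715 in shY2-2, a log2 ratio of -1.05, and was kept through shNC alone. More than 1.5-fold lower were 5 of the 11, OCLN, the keratins KRT7 (649 and 399 FPKM), KRT8 (523 and 322) and KRT19 (25.9 and 12.9), and the desmosome gene DSP (15.7 and 9.73).

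Of 23 mesenchymal genes 14 were kept, 11 lower and 3 higher, with a median of -0.32. COL1A1, among those higher, was kept through shY2-2 alone. More than 1.5-fold lower were 4 of the 14, beside 8.92% of all genes kept, and 0 were higher, beside 5.38%. FN1, which encodes fibronectin, fell by 1.86 on the log2 scale, from 32.8 to 8.33 FPKM, and the collagen gene COL5A1 fell by 1.18, from 4.53 to 1.44. LGALS1 (galectin-1) had 191 and 175 FPKM. Genes of the epithelial and of the mesenchymal list thus both lay mostly lower in shY2-2, as did CDH1 and CDH2 among the members, while VIM did not.

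The partners of CTNND1 and CDH1 in the adherens junction were closer to 0. Of 18 such genes 11 were kept, 8 lower and 3 higher, with a median of -0.18 and none past a log2 ratio of 1 in size. JUP (plakoglobin) had 36.7 FPKM in shNC and 44.4 in shY2-2, and CTNNB1 (beta-catenin) had 28.3 and 26.9. VCL (vinculin), at 17.3 and 10.4, and CDH4 (R-cadherin), at 2.23 and 0.786, were the 2 past 1.5-fold, both lower. Of all genes kept, 8.92% were that much lower. CDH4 was kept through shNC alone. With a pseudocount of 0.1 or 0.5, 1 gene of this list, CDH4, was below a log2 ratio of -1. Of 16 corepressors and turnover factors of the SNAI1 and ZEB proteins 15 were kept, 8 higher and 7 lower, with a median of 0.05 and none past 1.5-fold. LOXL2, an amine oxidase that acts with Snail, had 42.0 and 32.7 FPKM, and the deacetylase HDAC1 had 25.3 and 30.7. GRHL2, FAP, CTNNA2, CTNND2 and DUB3 were not analysed here.

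**Figure D5:**
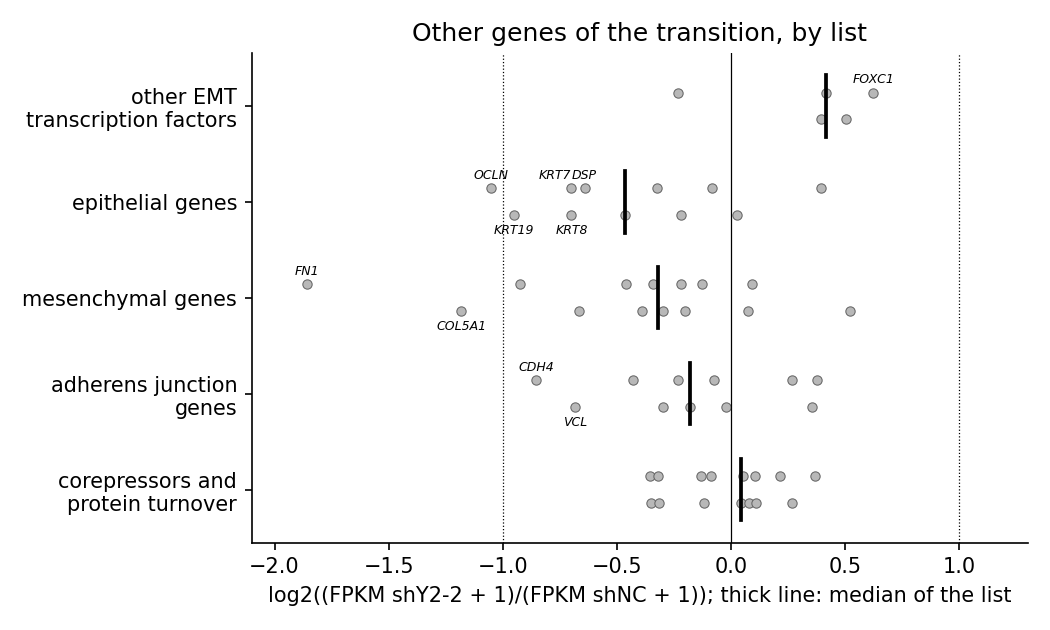
Log2 ratio of shY2-2 to shNC for the genes kept of 5 lists by role, 1 point per gene (the vertical offset has no meaning), with a thick line at each list's median and names at the genes past 1.5-fold that the text names. The epithelial and mesenchymal lists lie mostly left of 0, with medians of -0.46 and -0.32, and FN1 at -1.86 is the farthest.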

How the data were processed

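The 4 libraries were RNA-seq (input) and m6A-seq (IP) of A549 cells. Per the methods of the study, the authors aligned reads to GRCh38 with HISAT2 and used StringTie on the input libraries for the gene-level FPKM they deposited; fastp is also listed in the submitters' processing notes. They called peaks with exomePeak on the IP against the input library of each condition, annotated them with ChIPseeker and searched motifs with HOMER. Tool versions, the annotation release and the limit for calling a peak are not given in the sources used here. The deposited peak lists give a p-value, log10 scores of the p-value and FDR, and a fold enrichment, which is the unlogged IP to input ratio. FPKM keeps no fragment count, so a count test was not run and the depth behind a value is known only by the estimate in the text. Every FPKM column matched a sample (0 left over).

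Ratios used a pseudocount of 1, and genes were kept where either input library reached an FPKM of 1. Levels were not rescaled, since over the 11153 genes that reached it in both the median log2 ratio was 0.01. Entries with the same start and end were counted once, and near copies that differ at an end were counted apart. Peaks were placed on the canonical transcripts of GENCODE release 44, and motifs were searched in the spliced transcribed strand. Of the genes kept, 99.5% had such a transcript. Members and lists were chosen with earlier results of these data known. The genes named are the 10 members, YTHDF2, overlapping genes, markers, and of each list the genes past a log2 ratio of 1 in size and the 2 with the highest mean FPKM. Those named for passing 1.5-fold, or for being kept through 1 library alone, were chosen after their values were seen. A gene that this rule names is not reported here. The steps were tested on simulated data. Computations used Python 3.11.15, NumPy 2.4.6, pandas 2.3.3, pysam 0.24.0 and matplotlib 3.10.9.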

Additional observations from a re-analysis of the deposited data

How the results depend on the processing

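The directions of the 10 members and their side of a log2 ratio of 1 were kept with a pseudocount of 0.1 or 0.5 and with ratios centred on the median. At 1.5-fold, 2 members were lower, and of the lists 11 genes were lower (3 past a log2 ratio of 1 in size) and 1 was higher (0 past it). Of all genes kept, 8.92% were lower and 5.38% higher at 1.5-fold. Past a log2 ratio of 1 in size, 2.14% were lower and 0.986% higher. With an FPKM of at least 5, 1 list gene was lower. Member peaks numbered 11 in shNC and 8 in shY2-2 at an FDR of at most 0.05, 5 and 4 at 0.001, and 8 and 5 at a fold enrichment of at least 2. At an FDR of at most 0.001, 2 members had a shY2-2 peak. Peaks met by the other list fell to 2 in each list under that FDR and likewise under that fold. GGACT was in 6 shNC and 3 shY2-2 peaks, and DRACH (any of A, G or T, then A or G, then AC, then A, C or T) was in 17 shNC peaks. By the reference transcript 5 shY2-2 peaks lay in a 3′ UTR. Of 142 alternative values 115 stayed within their limits and 27 moved. Among those for the main counts of members, list genes and peaks, 33 stayed and 19 moved, whereas all 30 for the members' log2 ratios stayed. Stricter filters leave fewer peaks by construction. No paired analysis was possible because each condition has 1 library of each kind. For the same reason no replicate could be left out, and the depth of the IP libraries is unknown.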
